A study of Mus musculus with 8 samples.

Results

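Gene expression at 24h was compared with that at 0h in mouse acute myeloid leukaemia cells carrying an inducible Klf4. The comparison took the 2 libraries labelled 24h and the 2 labelled 0h, 4 of the 8 libraries of the series, and covered 14263 tested genes of 47069 in the count files. All 4 libraries came from GFP-positive leukaemia cells with the MLL-AF9 fusion and a TetO-Klf4 construct, sorted from leukaemic mice and labelled as bone marrow of strain C57BL/7. Doxycycline (Dox) induced Klf4. The groups differed in the labelled time point alone, 0h or 24h. The event that set the hours to 0 is not stated, nor whether doxycycline was given to mice or to cultured cells, nor the age of the mice. The labels also do not tie the 2 libraries of a time point to separate mice. The p-values therefore measure no more than the spread between these libraries, and that spread may be technical. Cells given doxycycline without the construct were not analysed here, so effects of the drug and of KLF4 cannot be told apart. The labels do not say how the construct was delivered or how many leukaemias the cells came from.

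KLF4 is a zinc-finger transcription factor of the Krüppel-like family that binds GC-rich and CACC-type sequences, and in the blood system it is known for its role in monocyte differentiation. MLL-AF9 joins the DNA-binding part of the MLL protein to AF9 and keeps a HOXA and MEIS1 programme active, which holds myeloid progenitors in an immature, self-renewing state. Such cells resemble granulocyte-macrophage progenitors, the stage at which granule proteases are made before neutrophils or monocytes mature.

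Values per library are given in the order replicate 1, replicate 2, as normalised counts (CPM) scaled by the trimmed mean of M values. The 0h libraries held 20394546 and 22467328 gene counts and the 24h libraries 26041347 and 24380981, so 3 counts correspond to between 0.1152 and 0.1471 CPM before that scaling. A gene was called changed at a Benjamini-Hochberg adjusted p under 0.05 in edgeR's quasi-likelihood test, two-sided, over all tested genes. Fold changes are log2 values, 24h minus 0h, with their standard error (SE). The labelled cell type was borne out by its markers in all 4 libraries: Ptprc, the pan-leukocyte antigen CD45, had 6916, 7261, 9115 and 8910 counts and Spi1, which encodes the myeloid factor PU.1, had 4889, 5628, 6439 and 5803. Bulk RNA was measured, so fewer cells of a type and less RNA of that type per cell cannot be told apart.

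Klf4 stood at 2.71 and 4.42 CPM at 0h and at 76.9 and 78.8 CPM at 24h. The groups did not overlap, and the difference was 4.43 ± 0.09 (SE; adjusted p = 2.6e-30). Reads from the construct and from the mouse's own Klf4 gene were not told apart.

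Of the tested genes, 7257 (50.9%) were called, 3721 higher (26.1%) and 3536 lower (24.8%). Most of these differences were small: the median size of a called change was 0.36. At least 2-fold rises numbered 1115 (7.82% of tested genes) and at least 2-fold falls 151 (1.06%). The rises and falls sat at different expression levels. Of 2735 genes under 1 CPM at 0h, 858 were called higher and 53 lower, and 809 of those rises were at least 2-fold. Of 2479 genes over 100 CPM at 0h, 434 (17.5%) were called higher and 1291 (52.1%) lower, with a median over the class of -0.11 against 0.02 for all tested genes. The balance of directions depends on the scaling: a correction for GC content and transcript length that also centres the mean gene moved the median of all genes from 0.02 to -0.13 and the share of calls that were higher from 51.3% to 28.7%. The libraries of the 2 time points did not overlap for 74.9% of all tested genes. Genes under 1 CPM at 0h were tested because they were counted at some time point, so those that passed only through a high 24h level had to differ. The 24h libraries also held more fragments without a gene feature, 9.036% and 9.272% against 5.697% and 5.25% at 0h. What these have to do with the rises from low levels was not tested.

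**Figure D1:**
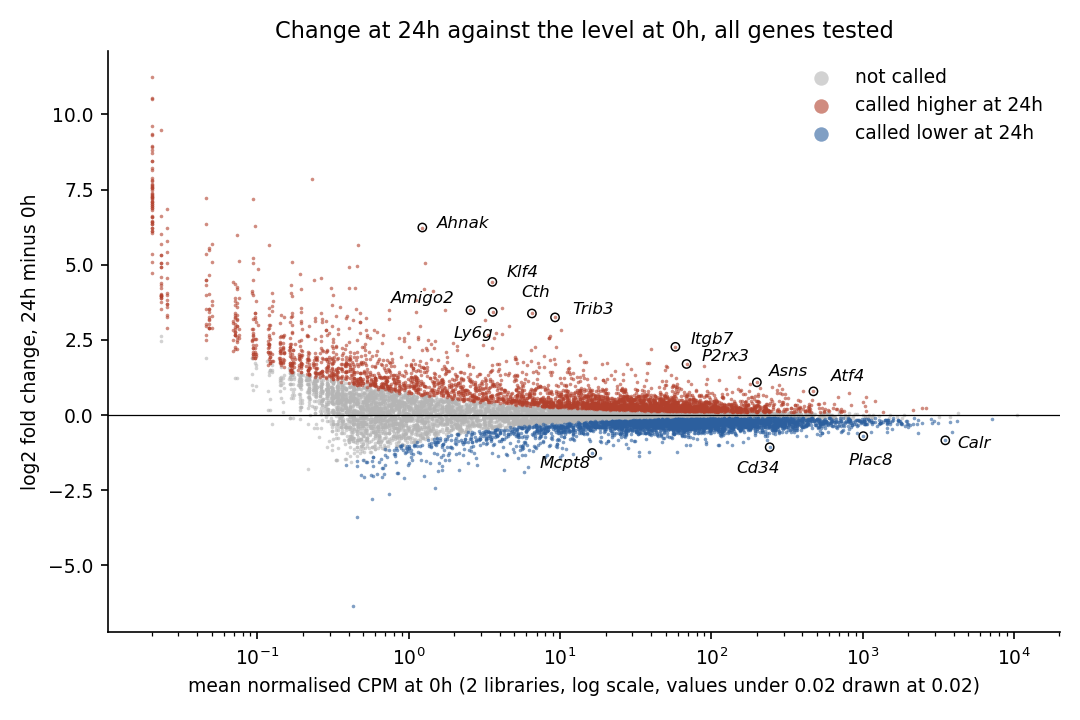
Each point is 1 of 14263 tested genes, with its mean normalised CPM over the 2 libraries at 0h on a log axis against its log2 fold change, 24h minus 0h; colours give the call and named genes are circled. Large rises lie at low 0h levels and the genes over 100 CPM at 0h lie mostly below 0; fitted changes of genes with no or few counts at 0h, at the far left, are not measured sizes.

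Predicted gene models were left out of the ranking by size. Among the other called genes whose log2 CPM averaged at least 3 and whose libraries did not overlap, Ahnak, a very large scaffold protein gene, had the largest rise. It went from 0.804 and 1.66 CPM at 0h to 96.2 and 93.8 CPM at 24h (6.24 ± 0.11, adjusted p = 3.5e-32). Amigo2, a leucine-rich-repeat adhesion molecule and next in size after Klf4, went from 2.36 and 2.76 CPM to 27.9 and 30.1, a rise of 3.49 ± 0.12 (adjusted p = 6e-24). Cth, the cystathionine lyase that makes cysteine, went from 6.58 and 6.45 to 66.9 and 68.8 CPM. Trib3, a pseudokinase gene of the amino acid and endoplasmic reticulum stress response, went from 9.05 and 9.49 to 89.8 and 86.1 CPM. Separate libraries were a condition of this choice, so they add nothing on these genes. Klf3, another Krüppel-like factor gene, rose by 2.82 ± 0.08, and Fyn, a Src-family kinase gene, by 2.97 ± 0.11. Extl1, a heparan sulfate glycosyltransferase gene, rose by 2.72 ± 0.12.

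The largest falls on the same rule were smaller and reached at most 1.43 in size. Serpina3g, a serine protease inhibitor of haematopoietic progenitors, went from 33.0 and 33.2 to 13.3 and 15.0 CPM (a change of -1.23 ± 0.09). Slpi, a secreted protease inhibitor, went from 112 and 112 to 60.3 and 52.0 CPM (adjusted p = 1.5e-17). Afp, the alpha-fetoprotein gene, went from 28.8 and 27.3 to 13.1 and 13.3 CPM (-1.08 ± 0.08).

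On a scale that accounts for transcript length (TPM, mean of 2 libraries), 4 of the 10 genes that lost most encode ribosomal proteins: Rplp1, Rpl36, Rplp0 and Rps2. Rplp1 went from 13500 to 11900 TPM. Calr, the calcium-binding chaperone of the endoplasmic reticulum, went from 3830 to 2300 TPM, and Ftl1, ferritin light chain, from 5400 to 3820 TPM, although 34.6% of the Ftl1 exons overlap other annotated genes. Hpgd, which degrades prostaglandins, went from 2100 to 1520 TPM and Hspa8, a constitutive chaperone, from 2840 to 2050 TPM. Gains on this scale included Atf4, the transcription factor of the integrated stress response, from 629 to 1170 TPM. Tmsb10, an actin-binding thymosin, went from 278 to 668 TPM and S100a11, a calcium-binding protein gene, from 1060 to 1450 TPM. The 10 largest gains also held a ribosomal protein gene, Rps29, from 2660 to 3250 TPM, with a call lost in DESeq2 (0.18, adjusted p = 0.52). Mitochondrial transcripts were among them too: mt-Nd1, mt-Nd2, mt-Cytb and the ribosomal RNAs mt-Rnr1 (958 to 1690 TPM) and mt-Rnr2 (1100 to 1560 TPM). Unlike the tested CPM, TPM were not scaled by the trimmed mean of M values, so sizes of change differ between the scales. Rplp0 went from 7170 to 6640 TPM but from 3790 to 3270 mean CPM, and S100a11 from 172 to 219 mean CPM. Genes on this scale were chosen among called genes, predicted gene models left out, whose libraries did not overlap. Calls and separate libraries therefore add nothing on them.

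Stem and progenitor genes were mostly lower. Of 16 tested members of 26 in the files, 9 were called lower and 3 higher, with a median of -0.22. Cd34, the sialomucin that marks immature haematopoietic cells, stood at 242 and 244 CPM at 0h and at 115 and 117 CPM at 24h. The change was -1.07 ± 0.04 (adjusted p = 5.7e-22). Angpt1, a ligand of the TEK receptor, went from 57.2 and 55.2 to 36.2 and 37.2 CPM, and the transcription factor genes Erg and Lmo2 fell by 0.36 and 0.34. Kit, the stem cell factor receptor, changed by -0.23 ± 0.05, from 102 and 96.8 to 84.1 and 85 CPM. Spink2, a protease inhibitor gene of progenitors, went the other way, from 1.76 and 2.16 to 3.63 and 4.32 CPM.

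The genes of the MLL-AF9 programme did not move one way. Of 26 tested members, 9 were called higher and 8 lower, with a median of -0.06, and with the mean gene centred the counts were 4 higher and 16 lower. Over all tested genes 26.1% were called higher and 24.8% lower, and the reported counts of this list lay near those shares. Hoxa9, a main effector of MLL fusions, stood at 422 and 405 CPM at 0h and at 457 and 441 CPM at 24h. The change of 0.12 ± 0.04 was called (adjusted p = 0.014) but was lost without replicate 2 of 0h (0.08, adjusted p = 0.22), without replicate 1 of 24h (0.09, adjusted p = 0.14) and with the mean gene centred (0.01, adjusted p = 0.87). Meis1, the HOX cofactor, went from 126 and 123 to 102 and 108 CPM (-0.24 ± 0.05, adjusted p = 2.9e-05). Hoxa10 stood at 262 and 260 CPM at 0h and 254 and 260 CPM at 24h, and it was not called. Mef2c, a transcription factor linked to leukaemic stem cells, fell from 46.5 and 46.5 to 31.4 and 29.1 CPM (-0.62 ± 0.07). Eya1, a phosphatase and transcriptional co-activator, fell by 0.46 ± 0.05. Dot1l, the histone methyltransferase that MLL fusions recruit, stood at 143 and 140 CPM at 0h and 180 and 191 CPM at 24h (0.39 ± 0.04), a call that was lost with the mean gene centred (0.02, adjusted p = 0.67).

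Genes of primary granules and granulocyte progenitors, which are made early in the granulocytic lineage, were more often lower than higher, with 12 of 21 tested members lower, 7 higher and a median of -0.23. Without replicate 1 of 0h 3 were higher, and with the mean gene centred 3 were higher and 15 lower. Ms4a3, a membrane gene of granulocyte-macrophage progenitors, went from 138 and 137 to 69.0 and 69.7 CPM, a change of -0.99 ± 0.05 (adjusted p = 2.2e-19). Plac8, a small cysteine-rich protein gene of myeloid progenitors, went from 999 and 1010 to 615 and 621 CPM (-0.70 ± 0.04). Srgn, the proteoglycan core of granules, went from 910 and 926 to 608 and 610 CPM. The granule protease genes Prtn3, Elane and Ctsg changed by -0.50, -0.30 and -0.23, and all 3 were called. Mpo, myeloperoxidase, stood at 37.9 and 39.0 CPM at 0h and 44.8 and 42.8 CPM at 24h, and its call (0.19, adjusted p = 0.015) was lost in 6 alternatives and its sign turned with the mean gene centred (-0.05). Nkg7, a granule membrane gene, rose from 5.33 and 4.70 to 11.4 and 11.5 CPM.

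Genes of later neutrophils were mostly higher, 17 of 23 tested members against 3 lower, with a median of 0.58. Ly6g, which encodes the GPI-anchored surface antigen of mouse neutrophils, stood at 3.37 and 3.82 CPM at 0h and 38.6 and 39.2 CPM at 24h. The rise was 10.8-fold (log2 3.43 ± 0.11, adjusted p = 6.2e-25). Anxa1, an annexin of neutrophil cytoplasm, went from 29.2 and 29.7 to 84.6 and 85.5 CPM. Padi4, the enzyme that citrullinates histones in neutrophils, went from 56.3 and 55.1 to 111 and 111 CPM. Pglyrp1 and Ngp, granule proteins of neutrophils, rose by 0.58 and 0.56. The defining secondary granule genes were higher at 24h but at low counts. Ltf, lactoferrin, had 66, 68, 167 and 171 counts in the 4 libraries and Camp, cathelicidin, had 56, 52, 127 and 85. As CPM before scaling, Ltf went from 3.24 and 3.03 to 6.41 and 7.01, and Camp from 2.75 and 2.31 to 4.88 and 3.49. The Camp call was lost without replicate 2 of 0h (0.55) and without replicate 1 of 24h (0.40). Cxcr2, a chemokine receptor of mature neutrophils, was lower, 37 and 24 counts at 0h against 17 and 14 at 24h (-1.27 ± 0.37), and its call was lost without replicate 1 of 0h (-0.87, adjusted p = 0.13).

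Monocyte and macrophage genes moved both ways. Of 30 tested members, 17 were called higher and 11 lower, with a median of 0.30; Klf4 itself and Ahnak are members. Ly6c2, the surface antigen of inflammatory monocytes and of myeloid progenitors, went from 997 and 1010 to 1340 and 1390 CPM (0.44 ± 0.04), although reads can be shared with its close copy. Lgals3, galectin-3, went from 20.6 and 24.6 to 55 and 49.0 CPM, and Cd68, a lysosomal membrane gene of macrophages, from 8.49 and 10.3 to 17.1 and 15.8 CPM. Against these, Adgre1, which encodes the macrophage antigen F4/80, fell from 64.0 and 69.0 to 42.7 and 39.0 CPM, and Emb, embigin, from 803 and 803 to 522 and 542 CPM. Csf1r, the receptor of macrophage colony-stimulating factor, had 26, 21, 40 and 28 counts and was not called, and C1qa, of tissue macrophages, had 0 counts in all 4 libraries.

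Mast cell and basophil genes were lower or not called, apart from Mitf. Of 11 tested members, 6 were lower and 1 higher, and 9 of the 21 members had 0 counts in all 4 libraries. Mcpt8, a protease of basophils, went from 15.5 and 17.0 to 6.55 and 7.03 CPM (-1.26 ± 0.11). Hdc, the enzyme that makes histamine, went from 111 and 119 to 69.2 and 72.9 CPM, and Cpa3, mast cell carboxypeptidase, from 36.1 and 36.9 to 24.0 and 24.8 CPM. Mitf, a factor of mast cells and macrophages, was the member called higher (0.55), a call lost without replicate 1 of 0h (0.52, adjusted p = 0.056) and without replicate 2 of 24h (0.40, adjusted p = 0.13). Fcer1a, a chain of the IgE receptor, had 0 counts in every library. Among dendritic cell genes, 6 of 14 tested were lower and 3 higher, but 2 were lower without replicate 2 of 0h and 3 without replicate 2 of 24h or in DESeq2. By size the list leaned the other way: 2 members were called at least 2-fold higher and 0 at least 2-fold lower. The test against a fold of 1.5 called 1 higher and 0 lower. Cst3, cystatin C, was among the members called lower (-0.24 ± 0.05).

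Of 40 tested myeloid transcription factor genes, 23 were called higher and 5 lower, with a median of 0.47. The balance depends on the scaling, with 17 higher and 13 lower when the mean gene was centred and 24 and 10 under the GC and length correction with each library's level kept. The factors that define the lineage changed little: Cebpa stood at 292 and 298 CPM at 0h and 311 and 291 CPM at 24h, Spi1 at 246 and 259 against 244 and 234, and neither was called. Cebpb, a factor of monocytic and emergency granulocytic differentiation, went from 70.0 and 73.1 to 135 and 111 CPM (0.78 ± 0.06, adjusted p = 1e-13). Bhlhe40, a circadian and immune repressor gene, rose by 1.45, and Klf2, a relative of Klf4, by 1.3. Tfec, a MITF-family factor of macrophages, fell from 92.8 and 90.8 to 47.5 and 46.4 CPM (-0.97 ± 0.06). Gfi1, a repressor needed for neutrophil development, changed by -0.17 ± 0.04. Immediate early genes, which stress and cell dissociation also induce, were mostly higher too, with 19 of 25 tested higher and 0 lower. Their summed level was 477 to 480 CPM at 0h and 807 to 810 CPM at 24h. Egr1 and Jun are members of both lists, and the induced gene Klf4 is itself in the myeloid factor list. The part of immediate early genes in the result was not tested.

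Defining markers of lymphoid cells were at 0. Pax5 of B cells, Cd3e of T cells and Ncr1 of NK cells had 0 counts in all 4 libraries. Summed over each list, B cell genes ran from 28.1 to 29 CPM at 0h and 18.1 to 19.6 CPM at 24h, T cell genes from 16.5 to 18.2 and 22.1 to 22.3 CPM, and NK cell genes from 6.58 to 8.09 and 13.2 to 13.8 CPM. The erythroid sum, 419 to 428 CPM at 0h and 257 to 273 CPM at 24h, was mostly Tfrc, while Hba-a1 had 2 to 11 counts. The megakaryocyte list, at 95.5 to 96.4 and 73.6 to 76.7 CPM, was led by Fli1, which myeloid cells also express, and Pf4 had 0 counts at 24h. The stromal and endothelial sum was 228 to 236 CPM at 0h and 183 to 192 CPM at 24h. Most of it was Pecam1, which leukocytes also express and which fell from 182 and 187 to 139 and 145 CPM, and Pdgfrb, at 44.3 and 47.7 CPM at 0h and 41.5 and 45.4 CPM at 24h and not called. Bglap, osteocalcin, rose from 1 and 1 counts to 24 and 20, whereas Col1a1 had 2 to 4 counts and 6 of the 17 members had 0 in all 4 libraries. The part of such cells in the results was not tested.

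**Figure D2:**
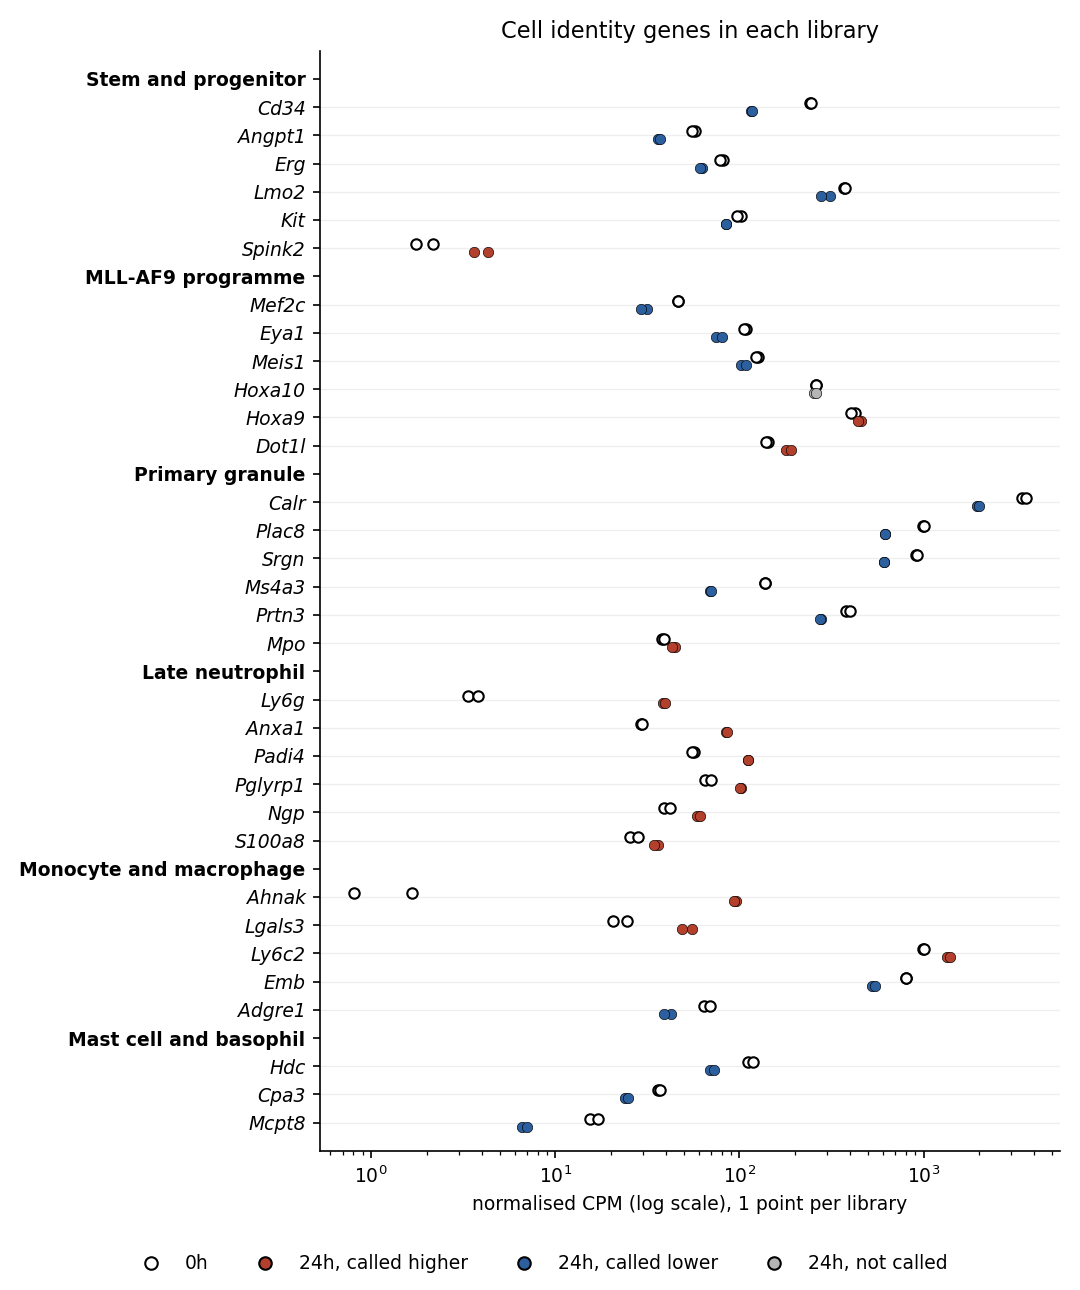
Normalised CPM of 32 genes on a log axis, 1 point per library, open for 0h and filled for 24h, coloured by call and grouped by list. Cd34, Ms4a3, Plac8 and Mcpt8 lie lower at 24h in both libraries, Ly6g, Anxa1 and Padi4 lie higher, and the points of Hoxa10 overlap.

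Amino acid genes were mostly higher. Of 72 tested genes for serine, one-carbon and asparagine metabolism, amino acid transport and tRNA charging, 43 were called higher, 11 lower and 18 were not called. In the first list, 14 of 27 were higher and 6 lower (median 0.23); among transporters 16 of 25 and 1 (median 0.33); among aminoacyl-tRNA synthetases 13 of 20 and 4 (median 0.37). The leading member was Cth, described above, at 3.38 ± 0.08 (adjusted p = 4e-28). Aldh1l2, the mitochondrial enzyme that oxidises formyl-folate, went from 8.19 and 8.61 to 50.4 and 49.5 CPM (2.57 ± 0.08). Asns, asparagine synthetase, went from 197 and 202 to 421 and 431 CPM (1.09 ± 0.04, adjusted p = 2.5e-22). Gpt2, a mitochondrial alanine transaminase, went from 49.6 and 50.6 to 152 and 156 CPM. The serine pathway genes Phgdh, Psat1 and Shmt2 rose by 0.47, 0.34 and 0.79, and the mitochondrial folate enzyme gene Mthfd2 by 1.04. Pycr1, which encodes a proline synthesis enzyme, rose by 1.18.

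Among transporters, Slc7a3, which carries cationic amino acids, went from 3.27 and 3.08 to 27.7 and 29.0 CPM (3.16 ± 0.12). Slc7a11, the cystine-glutamate exchanger, went from 9.25 and 7.97 to 53.1 and 52.2 CPM (2.62 ± 0.08, adjusted p = 6.5e-25). Slc6a9, a glycine transporter, went from 4.27 and 4.05 to 28.0 and 26.0 CPM, with 38.6% of its exons overlapping other genes. The 2 chains of the large neutral amino acid carrier, Slc7a5 and Slc3a2, rose by 0.88 and 0.89. Slc7a6 was the member called lower (-0.16), and that call was lost without replicate 2 of 0h (-0.12, adjusted p = 0.13). Of the synthetases, Gars, which charges glycine tRNA, went from 276 and 293 to 467 and 473 CPM (0.72 ± 0.04), and Cars, Sars and Nars rose by 0.75, 0.63 and 0.50. Farsa, a chain of the phenylalanine enzyme, fell by 0.37. Atf4, whose product activates such genes in the integrated stress response, went from 463 and 483 to 806 and 823 CPM (0.79 ± 0.04). Chac1, which degrades glutathione, went from 9.10 and 9.58 to 45.4 and 44.8 CPM (2.27 ± 0.08), and Sesn2, a leucine sensor, from 56.3 and 60.5 to 111 and 112 CPM.

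The RefSeq promoter windows of these genes (GRCm38.p6, 250 bases before to 50 after the annotated start) were searched on both strands for TGATGNAA, the core letters of the C/EBP-ATF composite element that ATF4 is known to bind. The motif was chosen after the values were seen. It was found in 10 of 30 amino acid genes called higher that have a window (33.3%), in 1 of 21 not called higher (4.76%) and in 2.86% of 10088 tested genes with a window. Among the 8 amino acid genes that rose at least 2-fold and have a window, 5 held it. A match is a description of letters, not a measured site. The windows of 4 genes with large rises follow, 5′ to 3′ on the gene's strand, with the match in capitals, to show where it lies.
Asns, chr6:7693160-7693459, minus strand: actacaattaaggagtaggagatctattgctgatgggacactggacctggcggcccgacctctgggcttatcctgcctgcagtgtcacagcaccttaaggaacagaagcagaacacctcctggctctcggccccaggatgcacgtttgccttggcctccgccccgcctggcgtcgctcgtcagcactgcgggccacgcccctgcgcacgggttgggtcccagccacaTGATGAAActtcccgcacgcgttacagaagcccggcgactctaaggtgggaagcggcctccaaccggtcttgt
Slc7a11, chr3:50443564-50443863, minus strand: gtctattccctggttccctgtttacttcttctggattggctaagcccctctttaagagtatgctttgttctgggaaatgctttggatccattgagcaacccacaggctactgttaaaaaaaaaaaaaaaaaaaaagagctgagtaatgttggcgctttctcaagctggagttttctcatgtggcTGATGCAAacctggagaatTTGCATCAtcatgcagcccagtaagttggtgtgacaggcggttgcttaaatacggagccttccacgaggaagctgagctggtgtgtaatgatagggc
Chac1, chr2:119350992-119351291, plus strand: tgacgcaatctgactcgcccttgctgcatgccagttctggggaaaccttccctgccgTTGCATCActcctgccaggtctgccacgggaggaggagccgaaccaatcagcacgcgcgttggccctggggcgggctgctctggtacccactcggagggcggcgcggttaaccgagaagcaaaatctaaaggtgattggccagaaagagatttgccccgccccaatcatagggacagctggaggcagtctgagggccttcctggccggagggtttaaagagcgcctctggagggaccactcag
Trib3, chr2:152344011-152344310, minus strand: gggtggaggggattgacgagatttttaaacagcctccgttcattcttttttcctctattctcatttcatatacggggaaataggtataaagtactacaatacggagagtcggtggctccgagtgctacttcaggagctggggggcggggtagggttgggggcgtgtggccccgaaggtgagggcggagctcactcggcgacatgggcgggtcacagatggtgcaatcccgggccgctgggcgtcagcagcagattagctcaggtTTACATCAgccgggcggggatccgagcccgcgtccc
Counted from the annotated start as 0, the match begins at -23 in Asns, at -66 and -47 in Slc7a11, at -193 in Chac1 and at 14 in Trib3. Chac1 stands in the glutathione list and Trib3 in none of the 3 amino acid lists, so neither enters the shares above.

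Glutathione and antioxidant genes divided: Slc7a11 and Chac1 rose, while 15 of 27 tested members were lower and 7 higher in all (median -0.18). Prdx1, a peroxidase, went from 276 and 280 to 189 and 200 CPM (-0.52 ± 0.04), and Sod1, superoxide dismutase, from 296 and 295 to 225 and 213 CPM.

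Most nuclear genes of mitochondrial energy metabolism were lower, by small amounts. Among all tested genes over 100 CPM at 0h, 52.1% were called lower, with a median of -0.11. The part of expression level in the lower shares of this and other lists was not tested. Of 75 tested oxidative phosphorylation genes, 67 were lower and 0 higher (median -0.26), and none reached 2-fold. Under the GC and length correction with each library's level kept, 51 were lower and 2 higher. Ndufa8, a subunit of complex I, went from 88.2 and 86.5 to 65.1 and 53.5 CPM (-0.56 ± 0.06, adjusted p = 1.4e-09). Cycs, cytochrome c, went from 335 and 339 to 252 and 239 CPM, and Atp5g1, of ATP synthase, from 241 and 249 to 189 and 176 CPM. Sdhd, of succinate dehydrogenase, fell by 0.44 ± 0.04. In the tricarboxylic acid cycle list 17 of 26 were lower and 1 higher (median -0.18); Mdh2, malate dehydrogenase, went from 481 and 499 to 394 and 392 CPM. Of 13 genes encoded in the mitochondrial genome, 4 were higher and 1 lower, with mt-Nd2 from 1200 and 1220 to 1610 and 1750 CPM (0.47 ± 0.04). The one called lower, mt-Co1 (-0.13), was lost without replicate 1 of 0h (-0.12, adjusted p = 0.062) and without replicate 1 of 24h (-0.09, adjusted p = 0.12). Another 6 of the 13 stood under 3 CPM in all 4 libraries, and nuclear copies may share their reads, so this list is uncertain.

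The pentose phosphate and NADPH genes were lower in 8 of 14, or in 13 with the mean gene centred, and higher in 0, led by Idh1, cytosolic isocitrate dehydrogenase, from 202 and 196 to 151 and 141 CPM. Purine and pyrimidine synthesis genes were lower in 18 of 28 and higher in 2 (median -0.17). Aprt, which salvages adenine, went from 326 and 341 to 238 and 231 CPM, and Gart, of purine synthesis, from 338 and 349 to 255 and 248 CPM (-0.45 ± 0.04). Glycolysis genes were higher in 9 of 30 and lower in 8, shares close to those over all tested genes, or 6 and 16 with the mean gene centred. Pfkp, platelet-type phosphofructokinase, rose from 247 and 251 to 370 and 352 CPM, whereas Pgam1, phosphoglycerate mutase, fell from 484 and 506 to 393 and 398 CPM. Eno3, an enolase of muscle, rose from 39 and 35 counts to 172 and 176.

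Lipid lists held calls in each direction. Cholesterol synthesis genes were higher in 7 and lower in 7 of 25 (median 0.02), shares close to those over all tested genes. With the mean gene centred the counts were 4 and 14. Fdft1, squalene synthase, changed by 0.50 and Idi1 by -0.38. Fatty acid synthesis genes were higher in 7 and lower in 5 of 21, shares near those over all tested genes, or 5 and 9 with the mean gene centred. Far2, a fatty acyl reductase, fell from 69.1 and 66.2 to 35.2 and 33.1 CPM (-0.98 ± 0.06, adjusted p = 6.7e-16), and Scd2, a desaturase, rose from 1040 and 1040 to 1240 and 1310 CPM. Fatty acid oxidation genes were lower in 10 of 25 and higher in 5, or 14 and 2 with the mean gene centred and 9 and 3 without replicate 2 of 24h, with Cpt1a, which admits fatty acids to mitochondria, at 0.63 ± 0.06. Sterol export genes were higher in 8 of 15 and lower in 3, or 5 and 6 with the mean gene centred and 5 and 3 without replicate 2 of 0h, with the transporter genes Abca7 and Abca2 at 0.61 and 0.53. Iron and haem genes were lower in 10 of 22 and higher in 4: Tfrc, the transferrin receptor, went from 425 and 415 to 253 and 269 CPM (-0.69 ± 0.04), and Fth1, ferritin heavy chain, from 648 and 677 to 497 and 505 CPM. Lysosome genes were higher in 9 and lower in 10 of 34, shares close to those over all genes, or 3 and 18 with the mean gene centred.

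Ribosome biogenesis and MYC target genes were lower in 35 of 40 and higher in 2 (median -0.23), with Fbl, the nucleolar methyltransferase fibrillarin, from 277 and 286 to 202 and 181 CPM (-0.56 ± 0.04). Myc itself stood at 252 and 267 CPM at 0h and 243 and 252 CPM at 24h and was not called. Nop56 was one of the 2 members that rose (0.17 ± 0.04). Cytosolic heat shock genes were lower in 9 of 15 and higher in 2, and Hspe1 fell by 0.45. In the cell cycle lists, G1-S genes were lower in 20 of 43 and higher in 5, or 29 and 2 with the mean gene centred and 19 and 3 without replicate 2 of 24h, while E2f2, an activator E2F, rose from 56.5 and 51.9 to 141 and 134 CPM (1.35 ± 0.05). Mitotic genes were higher in 19 of 40 and lower in 5, or 12 and 14 with the mean gene centred, 21 and 2 with the level kept, and 18 and 3 without replicate 1 of 24h, with Mki67 at 0.37. Of CDK inhibitor and cyclin D genes 5 of 10 were higher and 2 lower; Ccnd3 went from 202 and 206 to 335 and 327 CPM, and Cdkn2d, an INK4 inhibitor, from 28.6 and 30.9 to 42.1 and 40.7 CPM.

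**Figure D3:**
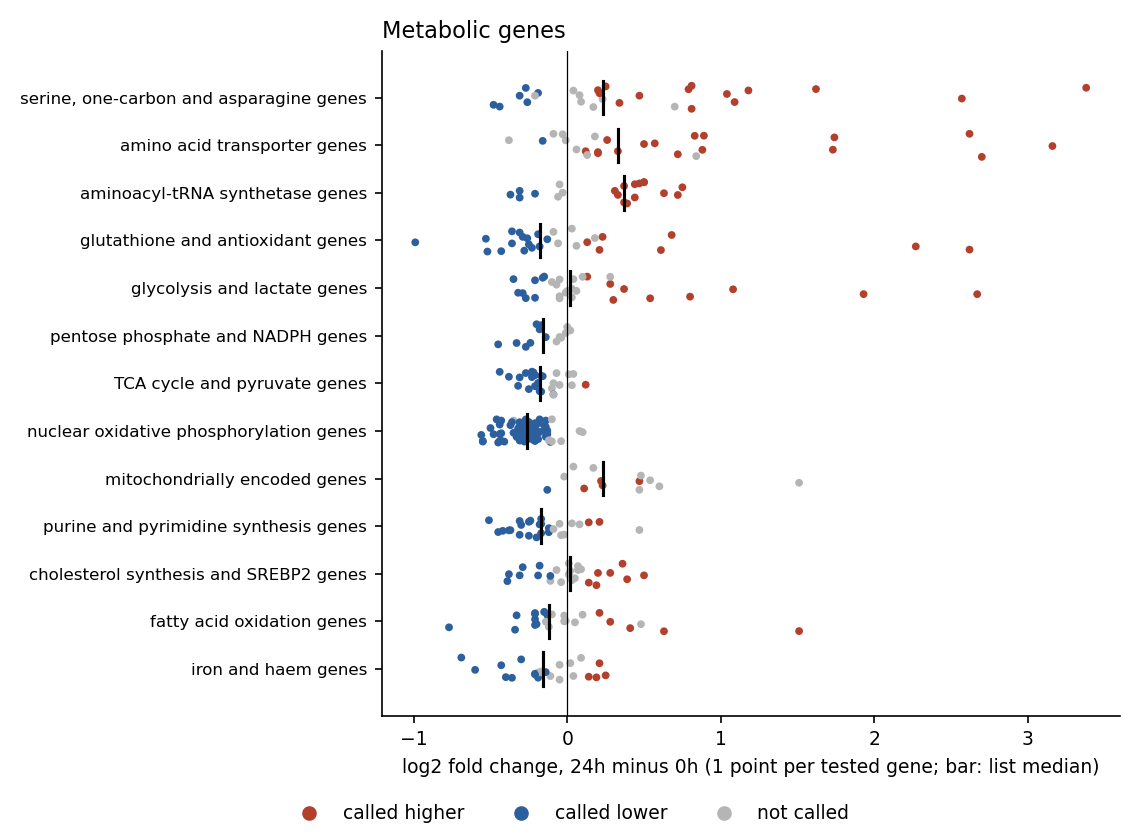
Log2 fold change, 24h minus 0h, of each tested member of 13 metabolic lists (1 point per gene, coloured by call; black bar, list median). Members of the 3 amino acid lists extend to the right as far as 3.38, and those of the nuclear oxidative phosphorylation list cluster around -0.26.

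**Figure D4:**
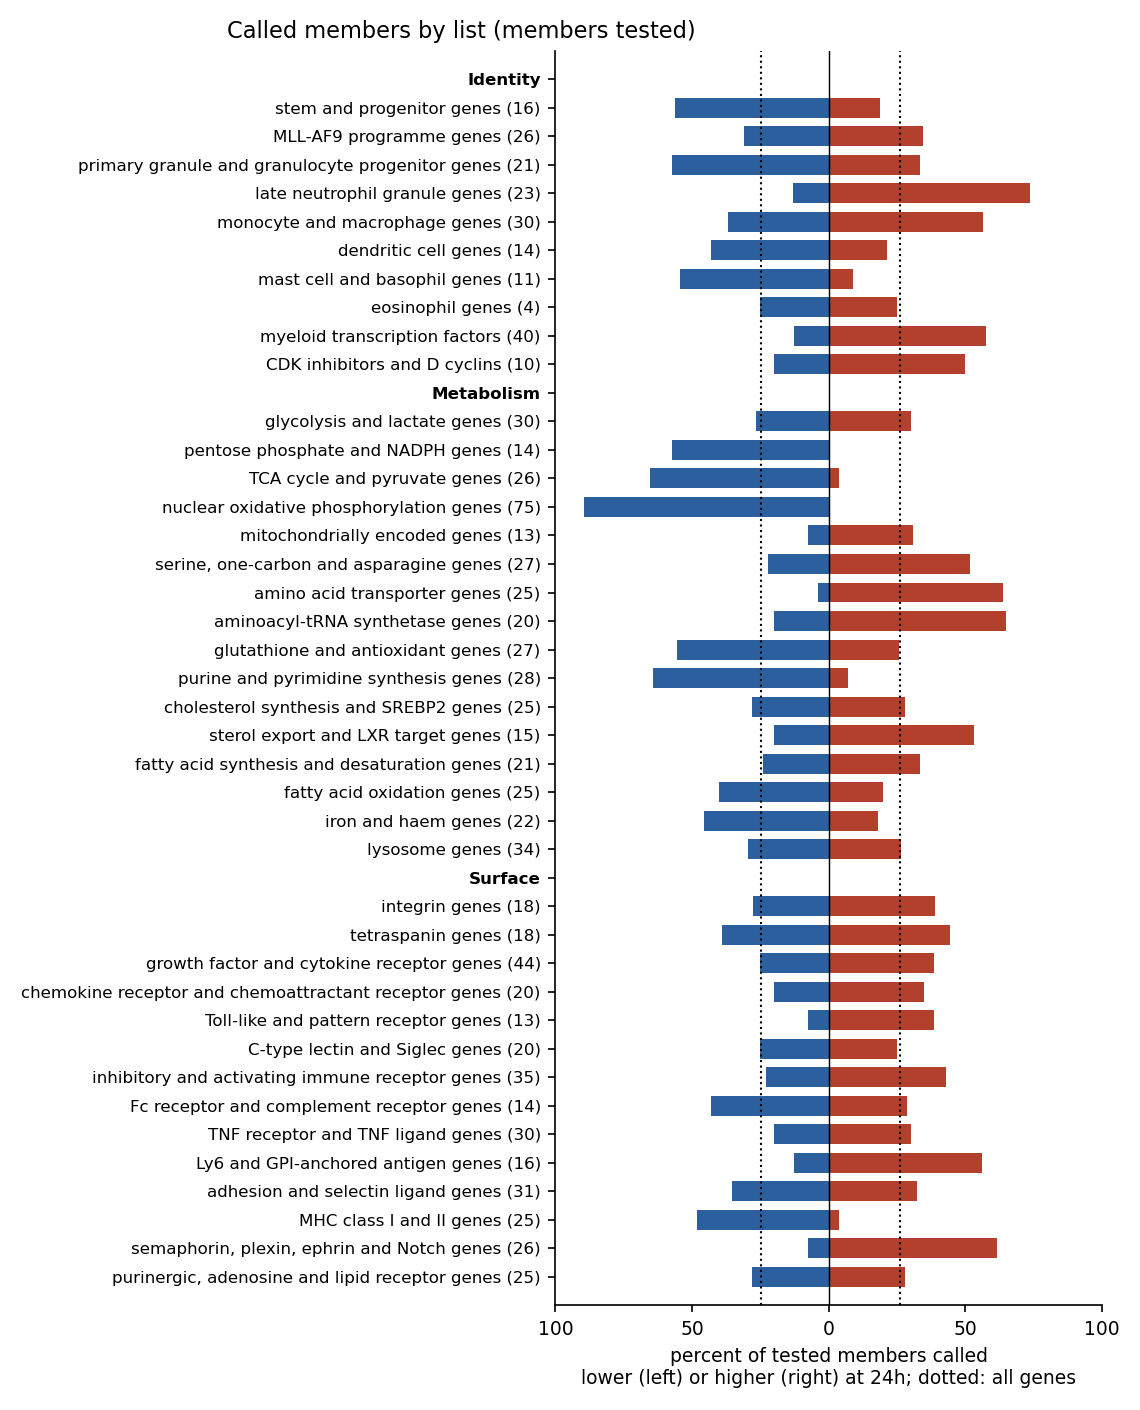
Percent of tested members called lower (bars to the left) or higher (bars to the right) at 24h in each identity, metabolism and surface list, with the number tested in brackets. Dotted lines mark the shares over all tested genes, 24.8% lower and 26.1% higher. Among genes over 100 CPM at 0h these shares were 52.1% lower and 17.5% higher. The late neutrophil, aminoacyl-tRNA synthetase, amino acid transporter and semaphorin lists extend furthest past the right line and oxidative phosphorylation past the left.

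Most surface families held genes called in each direction, and in the purinergic and TNF lists the shares called were close to those over all tested genes. Of 18 tested integrin genes 7 were higher and 5 lower, or 6 and 7 with the mean gene centred, and 3 were lower without replicate 2 of 0h, without replicate 1 of 24h and without replicate 2 of 24h. Itgb7, the beta chain that pairs with alpha 4 for homing to gut and marrow, stood at 56.4 and 59.5 CPM at 0h and 280 and 279 CPM at 24h. Both 24h libraries were above both 0h libraries, a 4.82-fold rise (log2 2.27 ± 0.05, adjusted p = 2.3e-30). Itgal, the alpha chain of LFA-1, went from 125 and 129 to 208 and 203 CPM (0.69 ± 0.04), Itga6, a laminin receptor chain, from 183 and 183 to 272 and 281 CPM, and Itga5, a fibronectin receptor chain, from 59.1 and 60.4 to 102 and 97.8 CPM. Itgax was among the integrin genes called lower, a call lost in DESeq2 (-0.63, adjusted p = 0.065). Other adhesion genes were higher in 10 and lower in 11 of 31. Their summed level went from 3860 and 3900 CPM at 0h to 3340 and 3400 CPM at 24h. Cd34, described above, is a member and fell by 1.07. The following members rose. Ncam1, the neural adhesion molecule CD56, went from 48.4 and 49.7 to 95.2 and 99.4 CPM (0.99 ± 0.05), L1cam from 5.78 and 5.62 to 19.2 and 19.2 CPM, and Jam2 from 5 and 3 counts to 98 and 88.

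The semaphorin, plexin, ephrin and Notch list had 16 of 26 tested members higher and 2 lower (median 0.45). Plxnb2, a semaphorin receptor, went from 1.41 and 0.967 to 8.97 and 9.53 CPM (2.97 ± 0.19), and Plxnc1, another, from 39.7 and 33.6 to 58.1 and 61.7 CPM. Notch1 and Notch2, receptors of cell-contact signalling, rose from 58.9 and 58.7 to 87.6 and 87.9 CPM and from 89.3 and 82.2 to 133 and 138 CPM. Among GPI-anchored antigens 9 of 16 were higher and 2 lower (median 0.42): beside Ly6g and Ly6c2, Plaur, the urokinase receptor, went from 48.3 and 44.5 to 64.7 and 64.3 CPM and Cd24a from 42.9 and 41.9 to 54.9 and 57.3 CPM. Tetraspanins were higher in 8 and lower in 7 of 18, or 5 and 10 with the mean gene centred. Cd63, a lysosome and granule membrane protein, fell from 522 and 525 to 340 and 322 CPM (-0.66 ± 0.04), and Cd9 rose from 14.7 and 11.6 to 27.5 and 28.3 CPM.

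Receptors for lipids, nucleotides and chemoattractants held some of the larger changes. P2rx3, an ATP-gated ion channel, went from 67.7 and 69.4 to 227 and 220 CPM (1.70 ± 0.05, adjusted p = 7.1e-27). Nt5e, the ectoenzyme CD73 that makes adenosine, fell from 71.3 and 73.2 to 36.4 and 36.9 CPM (-0.98 ± 0.06). In that list 7 of 25 were higher and 7 lower, or 6 and 9 with the mean gene centred. S1pr4, a sphingosine-1-phosphate receptor of leukocytes, went from 12.8 and 14.1 to 56.3 and 51.8 CPM (4.01-fold, adjusted p = 4e-22). Ltb4r1, a leukotriene B4 receptor of neutrophils, went from 10.2 and 12.0 to 30.3 and 29.6 CPM, and Gpr183, an oxysterol receptor, fell from 36.7 and 40.6 to 16.4 and 16.9 CPM. Cmklr1, the chemerin receptor, had 0 counts in both 0h libraries and 59 and 74 at 24h, at least 37.7-fold higher against a floor of 3 counts over both 0h libraries. Chemoattractant receptors as a list were higher in 7 and lower in 4 of 20.

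Receptors that sense microbes and antibody went in different directions. Tlr2 and Tlr4 rose from 9.45 and 9.35 to 18.6 and 19.3 CPM and from 20.6 and 17.7 to 33.6 and 32.5 CPM, within a list that was higher in 5 of 13 (3 without replicate 1 of 0h) and lower in 1. The one lower was Ly86, a partner of a Toll-like relative, from 23.8 and 24.8 to 13.2 and 14.2 CPM. Fcgr3 and Fcgr4, activating IgG receptors, fell by 0.61 ± 0.04 and 1.11 ± 0.14, from 231 and 240 to 148 and 161 CPM and from 10.1 and 10.6 to 4.24 and 5.37 CPM. C5ar1, the receptor of complement C5a, rose from 27 and 27 counts to 104 and 115. The Fc and complement list was higher in 4 and lower in 6 of 14.

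Immune receptor genes were higher in 15 of 35 and lower in 8. Vsir, the inhibitory ligand VISTA, went from 90.5 and 93.2 to 146 and 136 CPM (0.62 ± 0.05), and Cd244a, an activating receptor, from 23.6 and 23.3 to 38.2 and 40.3 CPM. Milr1, an inhibitory receptor of mast cells, fell from 59.7 and 58.5 to 24.1 and 26.0 CPM (-1.24 ± 0.06), and Btla, an inhibitory receptor of lymphocytes, from 48.9 and 44.9 to 23.8 and 26.7 CPM (-0.89 ± 0.07). Tnfrsf14, which encodes the partner of BTLA, rose from 4.93 and 4.24 to 12.4 and 11.6 CPM, and its other ligand gene Tnfsf14 fell from 19.6 and 20.8 to 10.8 and 10.3 CPM. TNF family genes as a list were higher in 9 and lower in 6 of 30, or 6 and 7 with the mean gene centred. Cd40, a costimulatory receptor of antigen-presenting cells, had 0 counts in both 0h libraries and 29 and 35 at 24h, at least 18.1-fold higher against the same floor. Growth factor and cytokine receptors were higher in 17 and lower in 11 of 44, or 14 and 21 with the mean gene centred; Csf2ra, of the GM-CSF receptor, went from 110 and 108 to 148 and 150 CPM and Il21r fell from 29.0 and 29.9 to 16.9 and 16.1 CPM.

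MHC genes were lower in 12 of 25 and higher in 1 (median -0.24), or 7 and 2 without replicate 2 of 0h. H2-K1, a classical class I gene, went from 501 and 523 to 443 and 421 CPM (-0.24 ± 0.04), although near-identical class I genes can share reads, and the peptide transporter genes Tap1 and Tap2 both changed by -0.26. H2-T24 was the member called higher (0.25), a call lost without replicate 1 of 0h (0.22, adjusted p = 0.089) and without replicate 2 of 24h (0.23, adjusted p = 0.065). Interferon-stimulated genes were also lower in 10 of 24 and higher in 0, with Gbp3, a guanylate-binding protein gene, from 103 and 92.7 to 69.4 and 68.7 CPM. The oxidative phosphorylation, pentose phosphate, immediate early, interferon-stimulated, T cell and NK cell lists had no call in one direction against 0h. That direction also held 0 members at an unadjusted p under 0.05 in edgeR and 0 calls in DESeq2. The erythroid list had 0 called higher, with 1 at an unadjusted p under 0.05 in edgeR and 0 in DESeq2.

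**Figure D5:**
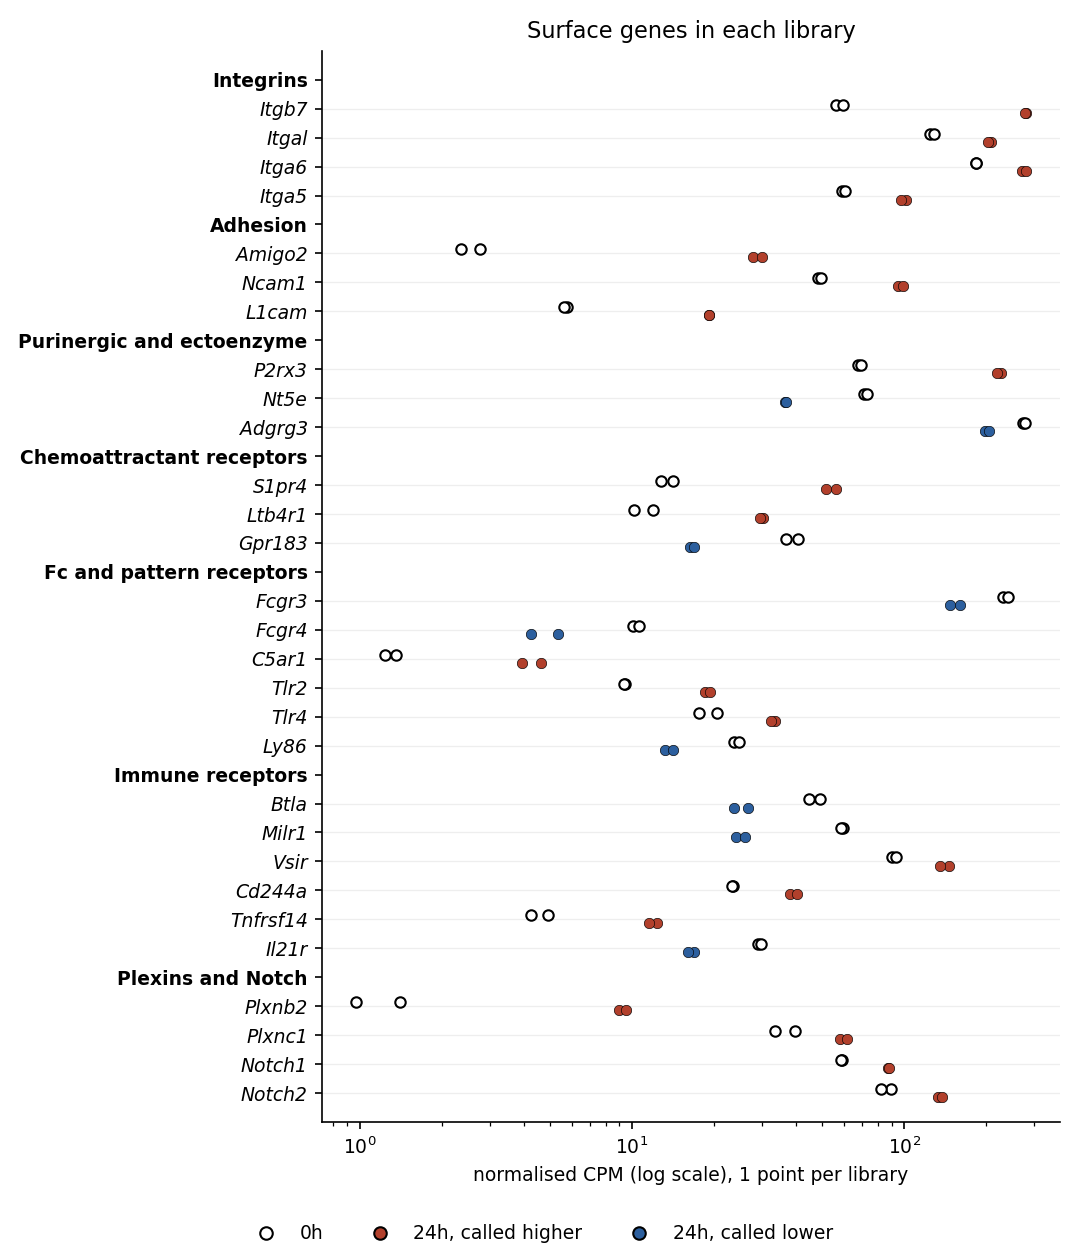
Normalised CPM of 29 surface genes on a log axis, 1 point per library, open for 0h and filled for 24h, coloured by call and grouped by family. Both 24h libraries of Itgb7, P2rx3 and S1pr4 lie above, and those of Nt5e, Milr1, Btla and Fcgr4 below, both 0h libraries.

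A direct test of 24h against 12h asked which of these genes were still moving late. It called 921 genes (6.46%), 487 higher (3.41%) and 434 lower (3.04%). The count was 373 (224 higher, 149 lower) without replicate 1 of 12h, 386 (226 and 160) without replicate 2 of 12h, 449 (254 and 195) without replicate 2 of 24h and 736 (367 and 369) without replicate 1 of 24h. With the mean gene centred, 462 were higher and 722 lower. Of the 3721 genes higher at 24h than at 0h, 419 were also higher than at 12h and 50 were lower. Of the 3536 lower genes, 323 were also lower than at 12h and 4 were higher. Both comparisons use the 24h libraries. The late risers included 10 of 23 late neutrophil genes, with Ly6g at 1.04 against 12h, and 11 of 20 tRNA synthetase, 10 of 25 amino acid transporter and 11 of 27 serine and one-carbon genes, with Cth at 1.39 and Slc7a3 at 1.31. Late falls included Cd34 (-0.37), Btla (-0.65), Mcpt8 (-0.82) and 17 of 43 G1-S genes. Klf4 was lower at 24h than at 12h (-0.53), whereas Itgb7 was still higher (0.33). Ahnak (0.03), Amigo2 (0.03), Klf3 (0.12) and S1pr4 (-0.05) were not called against 12h. Oxidative phosphorylation genes had 3 of 75 lower and 0 higher, and ribosome biogenesis genes 0 of 40 lower and 3 higher. At an unadjusted p under 0.05 in edgeR these counts of 0 were 3 and 1, and DESeq2 called 0 in each.

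The promoter windows were also searched on both strands for GGGTGTGG and GGGCGTGG, core letters of the KLF4 site. A gene can hold both motifs. Either was found in 15.6% of 10088 tested genes with a window, in 17.3% of 625 genes that rose at least 2-fold and in 6.25% of 112 genes that fell at least 2-fold (7 genes). Taken apart, GGGTGTGG was in 4.78% of the tested, 7.2% of the rising and 2.68% of the falling genes. For GGGCGTGG these shares were 11.7%, 10.7% and 3.57%. No test was run on these shares. The windows of the falling genes also held less GC, a median of 51.5% against 60.7% for all tested genes, and its part in the lower share was not tested. Among 18 genes with the largest rises and falls that have a window, 1 held a match, Extl1, which is shown with the match in capitals.
Extl1, chr4:134372498-134372797, minus strand: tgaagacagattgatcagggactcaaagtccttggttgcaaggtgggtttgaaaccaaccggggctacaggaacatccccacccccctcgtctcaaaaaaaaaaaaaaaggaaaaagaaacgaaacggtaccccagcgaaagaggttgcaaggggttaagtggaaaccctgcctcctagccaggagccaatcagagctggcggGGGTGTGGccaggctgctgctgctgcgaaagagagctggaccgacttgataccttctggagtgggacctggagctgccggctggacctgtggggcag
The match begins at -47 from the annotated start. No match says only that these letters are not in this window.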

How the data were processed

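The authors used an RNeasy kit for RNA and a TruSeq PE kit for the libraries, per the labels' protocols. The values are counts of fragments per Ensembl gene, as deposited by the authors, 1 table per library, not normalized. The submitters' processing notes name STAR, SAMtools 1.3, HTSeq 2.0.3 and build mm10. STAR's version, the annotation release and the strand setting were not given in the sources used, and reads of overlapping, antisense or near-identical genes cannot be told apart with certainty. Summary rows, which name no gene, entered neither library sizes nor tests; those without a gene feature averaged 5.47% of fragments at 0h and 9.15% at 24h. Gene names, lengths and overlaps came from GENCODE mouse release M21 on GRCm38 (46574 of 47069 IDs matched), and promoter windows from RefSeq.

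With edgeR 4.0.16 (R 4.3.3), filterByExpr by time point chose the genes, TMM scaled the libraries, and 1 quasi-likelihood fit held all 8 libraries, each time point with its own mean and no replicate block (4 residual and 32.1 prior degrees of freedom; biological coefficient of variation 3.1%). The contrasts were 24h against 0h and 24h against 12h. An SE is the size of a log2 fold change divided by the root of its F statistic, and is too narrow for rises from few counts. The fit was also run on simulated data with a fixed spread, which does not measure the error rate in these libraries. TPM are counts per kilobase of merged exons, scaled to a common total per library without TMM. A fold against 0 counts is a lower bound from 3 counts over both libraries, and covers counting error only.

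The 53 gene lists and the rule for named genes were chosen with earlier results of these data known. The rule took Klf4, then the 10 largest rises and falls among called genes whose log2 CPM (prior count 2) averaged at least 3 and whose libraries did not overlap, the 10 largest gains and losses in TPM, and in each list up to 4 called members with the smallest adjusted p plus the largest change each way. Predicted gene models (Gm, Rik, ENSMUSG and similar names) were left out of the choices by size and by TPM. Genes named outside it, among them Cebpa, Cebpb, Klf2, Bhlhe40, Gfi1, Kit, Prtn3, Elane, Ctsg, Ngp, Csf1r, Myc, Hoxa10, Phgdh, Psat1, Shmt2, Mthfd2, Pycr1, Slc7a5 and Slc3a2, and defining markers with few counts, were chosen after their values were seen. Some genes that the rule takes are not reported here. A list is described by counts and its median, with no test of the list. Members tested only because they were high at 24h had to differ, so a list's count of tested members leaves out those under the filter.

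The alternatives were DESeq2 1.42.0, its size factors, a stricter filter on low counts (log2 CPM averaging at least 1) or none, a fit to the 4 libraries alone, a replicate block, leave-one-out fits, a test against a fold of 1.5, and a GC and length correction (14212 genes) with the mean gene centred. The same correction with each library's level kept and a crossed replicate block were chosen after seeing the data.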

Additional observations from a re-analysis of the deposited data

Results flagged for a closer look

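Fragments that the counting gave to no gene feature were not used in any comparison. They made up 5.47% ± 0.316 (SD, n = 2) of all fragments at 0h and 9.15% ± 0.167 (SD, n = 2) at 24h, so that both 24h libraries, at 9.036% and 9.272%, lay above both 0h libraries, at 5.697% and 5.25%. Whether these fragments lie in introns, between genes or antisense to genes was not tested.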

How the results depend on the processing

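With 2 libraries a time point, of the 7257 genes called at 24h against 0h, 3967 kept their call and direction in every alternative except the test against a fold of 1.5. Leave-one-out fits gave 5722 to 6433 called, 2876 to 3299 higher, 2846 to 3134 lower, 970 to 1080 at least 2-fold higher and 129 to 151 at least 2-fold lower, and 373 to 736 called against 12h. The test against a fold of 1.5 called 953 genes (843 higher, 110 lower, 720 and 67 at least 2-fold) and 41 against 12h. With the mean gene centred in the GC and length correction, 2288 were higher, 5694 lower and 255 at least 2-fold lower. The stricter filter left 370 at least 2-fold higher and 42 lower, since it tests 10845 genes. DESeq2 called 5802 genes against 0h and 433 against 12h (211 higher, 222 lower). In all other alternatives these counts over all genes stayed within 1.5 times those reported, apart from 722 lower against 12h with the mean gene centred. Of the 53 lists, counts of at least 5 members in a direction moved by over 1.5 times in 16 with the mean gene centred, 2 with the level kept, 3 in DESeq2, 3 under the stricter filter, 43 against a fold of 1.5 and 3 to 5 in leave-one-out fits.

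The replicate block gave 7160 called against 0h (3682 higher, 3478 lower) and 836 against 12h. The correlation of deviations between same-numbered libraries was -0.0761 for 0h and 24h and -0.116 for 12h and 24h; over all 6 pairs of time points it ran from -0.174 to 0.188 (0h and 6h) and was over 0.1 in 1, so the numbers were not taken to pair the samples. Crossing the numbers of 12h and 24h, chosen after seeing the data, gave 1143 against 12h. Among genes named by the rule, 225 of 256 kept their call in the same alternatives, and 2 turned their sign in 1: mt-Co1 (0.02 with GC and length corrected and the level kept, also chosen after seeing the data) and Impdh1 (-0.11 with the mean gene centred). The cause of these shifts was not tested. At 3 counts, 0.1152 to 0.1471 CPM before TMM scaling, levels are at the limit of what these depths show.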

Other observations

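p53 target genes, which were not part of the comparisons by identity, metabolism or surface, had a median of -0.10: 25 were tested, 11 were called lower and 6 higher. Ccng1, cyclin G1, went from 502 and 500 to 321 and 323 CPM (-0.64 ± 0.04), and Bax, a pro-apoptotic BCL2-family gene, from 236 and 247 to 169 and 154 CPM. Gadd45a, a growth-arrest gene that other stress pathways also induce, rose from 9.80 and 8.79 to 30.7 and 29.3 CPM (1.69 ± 0.09).

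Genes called at 24h against 12h but not against 0h numbered 64 higher and 61 lower.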
